A study of Homo sapiens with 12 samples.

Results

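Metallothioneins and the transporters that carry zinc across cell membranes were examined in MDA-MB-453 cells treated with androgen. The set was chosen by gene symbol and holds 10 of the 60670 genes of the deposited count table: the metallothioneins MT2A, MT1X, MT1E, MT1F and MT1G, the zinc exporters SLC30A1 and SLC30A2, and the zinc importers SLC39A6, SLC39A7 and SLC39A14. MDA-MB-453 is an established human breast cancer line of luminal apocrine type that lacks estrogen receptor alpha. Cells of the DHT group were exposed for 6 h to dihydrotestosterone (DHT), a potent natural androgen, at 10 nM, and those of the vehicle group for 6 h to 0.001% ethanol, with no other difference named in the labels. Each group had 6 libraries from consecutive passages of 1 line, grown for 72 h in DMEM with 10% fetal bovine serum, so the spread between libraries is that between passages of a single line and not between tumours. RNA was read as single 40-base reads, and the labels call the assay both poly-A and total RNA-seq.

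Metallothioneins are small cysteine-rich proteins that bind zinc and copper. Their genes lie in a cluster on human chromosome 16, and the zinc-sensing transcription factor MTF1 switches them on when free zinc in the cell rises. MT2A is also a textbook target of glucocorticoid hormones. Cells lower their free zinc through SLC30 (ZnT) proteins, which export zinc or load it into vesicles, and raise it through SLC39 (ZIP) proteins, which bring zinc into the cytosol from outside or from stores.

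Metallothionein genes are close copies of each other, which matters for reads of 40 bases. The coding sequences of the 5 metallothionein members, 186 bases each, were 88.7% to 95.2% identical over 10 pairs. The coding stretch of the last exon, 89 bases, is shown for each, with that of MT2P1, a processed copy of MT2A on chromosome 4. Capitals mark bases that differ from MT2A. Transcripts are those of GENCODE v29 on GRCh38, and each line reads 5′ to 3′ on the strand of the gene.
MT2A: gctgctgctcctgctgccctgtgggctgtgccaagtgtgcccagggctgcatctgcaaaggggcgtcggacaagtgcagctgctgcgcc
MT1X: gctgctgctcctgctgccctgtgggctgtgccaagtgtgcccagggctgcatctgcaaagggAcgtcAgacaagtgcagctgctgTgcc
MT1E: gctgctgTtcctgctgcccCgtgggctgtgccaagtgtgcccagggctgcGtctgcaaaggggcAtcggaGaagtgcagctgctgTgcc
MT1F: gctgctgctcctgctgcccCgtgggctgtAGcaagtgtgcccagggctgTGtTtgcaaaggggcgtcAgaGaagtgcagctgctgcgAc
MT1G: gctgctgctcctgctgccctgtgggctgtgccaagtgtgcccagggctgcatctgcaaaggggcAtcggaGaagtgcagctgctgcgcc
MT2P1: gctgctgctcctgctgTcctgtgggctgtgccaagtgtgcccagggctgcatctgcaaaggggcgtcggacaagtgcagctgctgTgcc
The stretches lie at chr16:56609263-56609351 (plus strand) for MT2A, chr16:56683958-56684046 (plus) for MT1X, chr16:56626880-56626968 (plus) for MT1E, chr16:56659073-56659161 (plus) for MT1F, chr16:56666882-56666970 (minus) for MT1G and chr4:68376417-68376505 (plus) for MT2P1. MT1G and MT2P1 each differed from MT2A at 2 bases and MT1X at 3, against 6 for MT1E and 9 for MT1F. The longest run identical to MT2A was 62 bases in MT1X, 64 in MT1G and 68 in MT2P1, longer than a whole read. It was 30 bases in MT1E and 19 in MT1F, shorter than a read.

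Counted over all annotated transcripts, 72 of the 1370 distinct 40-base windows of MT2A (5.26%) also occurred in another gene, 40 of them in MT2P1. The share was 19.9% for MT1G, 10.6% for MT1E and 2.09% for MT1F, all with other metallothionein genes or pseudogenes. For MT1X it was 19.1%, of which 4.55% was with metallothioneins, and much of the rest was with AC026461.1, a gene that overlaps 18.6% of its exon bases on the same strand. The transporters shared no window with a metallothionein. With other genes, SLC30A1 and SLC39A6 shared no window, SLC39A14 shared 0.286% and SLC30A2 2.29%. SLC39A7 shared 7.12%, all with RXRB, which overlaps 7.77% of its exon bases on the opposite strand, and the sources used here do not give the strand setting of the counting. Of the nonzero library values deposited by the authors, 100% were not whole numbers for MT2A and MT1F and 91.7% for MT1X and MT1G, with 20% for MT1E. The share was 8.33% for SLC30A1, SLC39A6 and SLC39A14, 33.3% for SLC39A7 and 100% for SLC30A2, whose few nonzero values were all 0.25 or 0.5. It thus did not separate the families. Levels of single metallothionein genes are uncertain as far as reads from the shared windows were divided between copies. The windows were not weighted by the level of each transcript, so their share is not the share of reads.

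**Figure D1:**
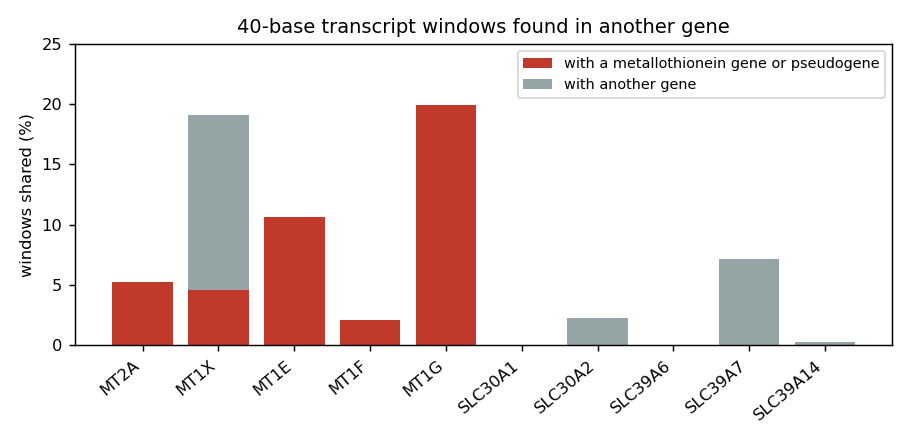
Share of each gene's distinct 40-base transcript windows that also occur in another gene (percent, vertical axis), with windows shared with a metallothionein gene or pseudogene in red and windows shared only with other genes in grey. Among metallothioneins the share ran from 2.09% (MT1F) to 19.9% (MT1G). Among transporters it ran from 0% (SLC30A1 and SLC39A6) to 7.12% (SLC39A7), with no window shared with a metallothionein.

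Promoters are shown for MT2A, MT1X and SLC30A1 because MTF1 acts on this class of gene through a short metal response element. Each is the 250 bases before the RefSeq start on GRCh38.p14, 5′ to 3′ on the strand of the gene. Capitals mark each match, on either strand, to the core of that element, searched as TGCACNC or TGCGCNC; no matches overlapped.
MT2A: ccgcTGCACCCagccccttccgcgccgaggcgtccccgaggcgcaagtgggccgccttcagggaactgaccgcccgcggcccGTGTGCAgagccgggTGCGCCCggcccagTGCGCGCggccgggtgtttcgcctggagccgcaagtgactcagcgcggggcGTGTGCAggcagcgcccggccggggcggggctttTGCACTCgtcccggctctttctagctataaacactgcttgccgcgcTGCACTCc
MT1X: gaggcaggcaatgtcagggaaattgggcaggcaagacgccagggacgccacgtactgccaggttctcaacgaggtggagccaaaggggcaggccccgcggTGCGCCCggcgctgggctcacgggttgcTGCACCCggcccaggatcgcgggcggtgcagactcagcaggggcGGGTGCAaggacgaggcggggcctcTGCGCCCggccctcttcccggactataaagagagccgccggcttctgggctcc
SLC30A1: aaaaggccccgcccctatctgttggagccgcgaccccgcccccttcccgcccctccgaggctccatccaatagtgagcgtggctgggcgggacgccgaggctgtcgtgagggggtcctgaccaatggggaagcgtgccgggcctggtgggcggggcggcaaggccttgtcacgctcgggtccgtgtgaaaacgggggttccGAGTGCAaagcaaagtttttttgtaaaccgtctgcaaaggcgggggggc
They lie at chr16:56608334-56608583 (plus strand) for MT2A, chr16:56682220-56682469 (plus) for MT1X and chr1:211579162-211579411 (minus) for SLC30A1. The MT2A promoter held 7 matches, a number reached by 9 of 27305 RefSeq promoters (0.033%). MT1X held 4 (at least 4 in 0.366% of promoters), while SLC30A1 held 1 (at least 1 in 24.7%). Of the other members in the promoter table, SLC30A2 held 3, SLC39A6 held 1 and SLC39A7 held 0; 6 of the 10 members were found there. The core of the steroid receptor element, searched as AGAACA on both strands, was in none of these 6 windows and in 12.4% of promoters. A match describes the letters only, and its absence says nothing of binding elsewhere.

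The libraries held 9486951 to 25678781 counts in the DHT group and 4346465 to 16963880 in the vehicle group. Both replicate 2 libraries stood apart from the rest on the first principal component of all tested genes, which held 52.7% of the variance (69.1 for DHT replicate 2 and 76.8 for vehicle replicate 2, with the other libraries between -30.1 and 23.5). Vehicle replicate 5 stood apart on the second component (49.1) and had the highest share of counts on mitochondrially encoded genes, 8.07%, within ranges of 3.03% to 4.00% for DHT and 3.09% to 8.07% for vehicle libraries. Markers of the line were present, with EPCAM, an epithelial adhesion gene, at 267 ± 14.5 CPM in DHT and 292 ± 39.0 CPM in vehicle libraries (CPM, deposited counts scaled to a common library total; SD, n = 6 each), while ESR1 stayed at or under 0.413 CPM on average. The levels of these markers were not all stable. Of 10 luminal apocrine markers, all tested, edgeR called 3 lowered and 0 raised at an adjusted p under 0.05. Of all tested genes it called 0.88% lowered and 1.96% raised. The median log2 fold change of the 10 was -0.54, and EPCAM did not pass (edgeR adjusted p = 0.780). FKBP5, a classical androgen and glucocorticoid target, rose to 350.1 ± 63.9 CPM in DHT libraries, against 82.4 ± 15.2 CPM in vehicle libraries. Markers of leukocytes summed to at most 0.337 CPM in a DHT library and 0.855 CPM in a vehicle library, and those of endothelium to at most 0.601 and 1.55 CPM. Among 6 fibroblast markers COL1A1 was present (62.0 ± 5.79 CPM with DHT, 79.9 ± 13.8 CPM with vehicle), and the others averaged under 5 CPM. The 6 summed to 59.9 to 75.9 CPM in DHT libraries and 76.4 to 110.4 CPM in vehicle libraries. COL1A1, COL1A2 and COL3A1, the 3 tested, had log2 fold changes of -0.36, -1.10 and -1.17, each at an unadjusted edgeR p under 0.05 and none past the adjusted threshold. Basal myoepithelial markers summed to 3.08 to 4.37 CPM in DHT libraries and 10.8 to 17.7 CPM in vehicle libraries, and TP63 among them fell (log2 fold change -2.58, SE 0.18). The part of these markers in the results was not tested.

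None of the 10 members changed with DHT by the test. Genes with enough counts to be tested numbered 16355, of which 464 passed an adjusted p of 0.05 (2.84%; 1.96% raised and 0.88% lowered) in the quasi-likelihood F-test of edgeR with Benjamini-Hochberg adjustment over all tested genes. MT2A, MT1X, MT1F, SLC30A1, SLC39A6, SLC39A7 and SLC39A14 were tested, and 0 of these 7 passed. At an unadjusted p under 0.05, 1 of the 7 passed (SLC39A14), against 12% of all tested genes. DESeq2 and limma-voom also called 0 of the 7, where they called 4.85% and 2.8% of all tested genes, and edgeR called 0 without both replicate 2 libraries, where 5.59% of genes passed. MT1E, MT1G and SLC30A2 had too few counts to be tested. The median log2 fold change (DHT over vehicle) of the 7 tested members was 0.16, with -0.01 for the 3 metallothioneins and 0.21 for the 4 transporters, against -0.05 for all tested genes. The DHT and vehicle ranges overlapped for every tested member, while 3.29% of all tested genes had ranges that did not overlap. In bulk RNA a change in the number of cells that express a gene and a change in RNA per cell cannot be told apart.

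MT2A (ENSG00000125148, chromosome 16, 56608584 to 56609497, plus strand), the main metallothionein of most human tissues, carried nearly all of the metallothionein signal. It stood at 62.5, 226.7, 85.5, 93.3, 53.2 and 60.7 CPM in DHT replicates 1 to 6. Vehicle replicates 1 to 6 had 47.3, 223.4, 73.6, 62.5, 118.0 and 62.9 CPM. The highest library of each group was replicate 2, the vehicle library next in level was replicate 5, and the groups overlapped over almost their whole ranges. The means were 97.0 ± 65.4 CPM with DHT and 97.95 ± 66.0 CPM with vehicle (SD, n = 6 each), a log2 fold change of -0.01 (SE 0.42, 95% interval -0.91 to 0.89, edgeR adjusted p = 0.996). The interval, from the fit without pairing, is wide enough to hold changes of nearly 2-fold either way. With the replicate number as a block the log2 fold change was 0.011, with a smaller SE of 0.19. Replicate 2 was 3.63 times the median of the other 5 libraries in the DHT group and 3.55 times in the vehicle group. Without both replicate 2 libraries the log2 fold change was -0.03 (SE 0.22, adjusted p = 0.954). It was -0.47 without DHT replicate 2 alone and 0.41 without vehicle replicate 2 alone, so its sign depended on which of these libraries was kept.

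MT1X (ENSG00000187193, chromosome 16, 56682470 to 56684196, plus strand), a metal-inducible isoform, was far lower. DHT replicates 1 to 6 had 2.11, 5.38, 2.40, 3.61, 1.72 and 2.08 CPM. Vehicle replicates 1 to 6 had 1.61, 3.69, 1.72, 2.03, 3.85 and 2.79 CPM. DHT replicate 2 was above every other library, and the remaining 5 DHT libraries lay within the vehicle range. The means were 2.88 ± 1.38 CPM with DHT and 2.62 ± 0.987 CPM with vehicle (SD, n = 6 each; log2 fold change 0.16, SE 0.32, 95% interval -0.52 to 0.85, edgeR adjusted p = 0.934). Without DHT replicate 2 the log2 fold change was -0.13.

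MT1F (ENSG00000198417, chromosome 16, 56657731 to 56660698, plus strand), another metal-binding isoform of the cluster, had 2.13, 4.72, 1.76, 2.41, 2.02 and 1.42 CPM in DHT replicates 1 to 6. Vehicle replicates 1 to 6 had 2.32, 5.69, 2.36, 1.59, 3.52 and 2.85 CPM. Replicate 2 was again the highest of each group, and only DHT replicate 6 lay below every vehicle library. The means were 2.41 ± 1.18 CPM with DHT and 3.05 ± 1.44 CPM with vehicle (SD, n = 6 each; log2 fold change -0.31, SE 0.34, 95% interval -1.03 to 0.41, edgeR adjusted p = 0.860). Without DHT replicate 2 it was -0.64, and without vehicle replicate 2 it was -0.02.

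MT1G and MT1E, metal-inducible isoforms, were near the limit of detection. MT1G (ENSG00000125144, chromosome 16, 56666730 to 56668065, minus strand) ran from 2.5 to 22.07 deposited counts in DHT libraries and from 2.08 to 12.24 in vehicle libraries, or 0.440 ± 0.301 and 0.444 ± 0.250 CPM (SD, n = 6 each). MT1E (ENSG00000169715, chromosome 16, 56625475 to 56627112, plus strand) ran from 1 to 9 counts with DHT and from 0 to 6.5 with vehicle, or 0.214 ± 0.120 and 0.215 ± 0.198 CPM. Replicate 2 was the highest library of each group for both genes, and vehicle replicates 3 and 6 had 0 MT1E counts. A count was worth 0.0456 to 0.0993 CPM in DHT libraries and 0.0599 to 0.214 CPM in vehicle libraries. That worth is not a limit above which a difference would be detectable. Both genes were too low to test, so no such limit is given.

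**Figure D2:**
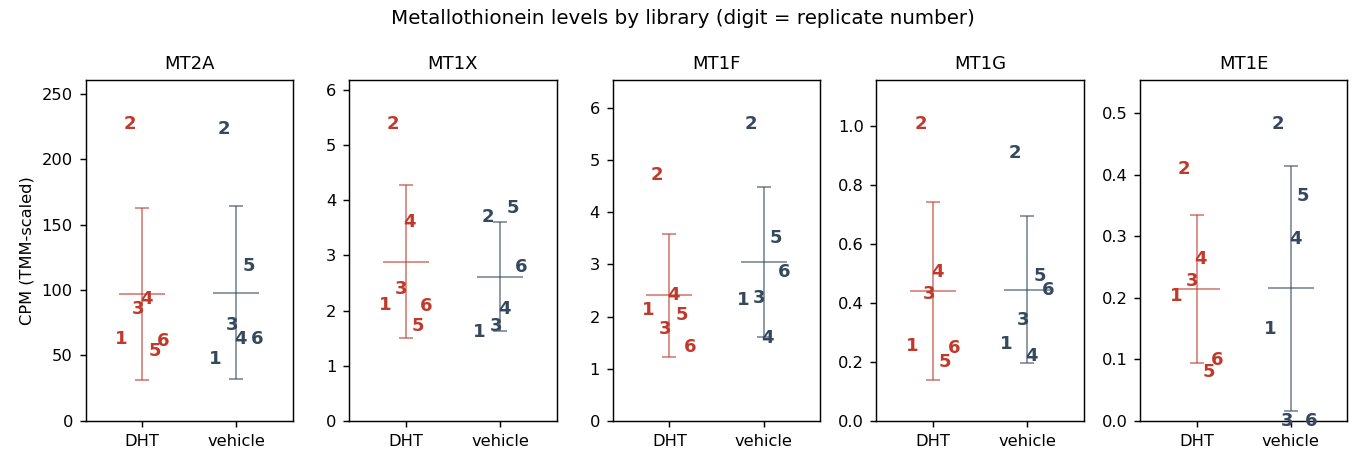
Level of the 5 metallothionein members in each library (CPM over TMM-scaled totals, linear axis from 0), DHT in red and vehicle in blue, with the replicate number as the marker and the mean ± SD as lines (n = 6 each). Replicate 2 is the highest library of each group in every panel except MT1X in vehicle, where replicate 5 (3.85 CPM) lies just above it (3.69 CPM).

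Because reads can be divided among copies, the CPM of the 5 metallothioneins were also summed. The sum ran from 57.2 to 238.2 CPM in DHT libraries (median 78.8, mean 102.9 ± 68.3) and from 51.7 to 234.2 CPM in vehicle libraries (median 73.5, mean 104.3 ± 68.5; SD, n = 6 each). MT2A made up 93.0% to 95.2% of it in DHT libraries and 91.2% to 95.4% in vehicle libraries. With every other metallothionein gene and pseudogene of the table added, the sum averaged 115.9 ± 76.9 CPM with DHT and 116.1 ± 77.5 CPM with vehicle. The sums thus differed far less between the groups than between libraries of a group. MT2P1, the processed copy, was counted at 9.90% to 11.9% of MT2A in DHT libraries and at 7.08% to 10.5% in vehicle libraries. Its level was 10.5 ± 7.10 CPM with DHT and 9.22 ± 7.36 CPM with vehicle (log2 fold change 0.19, SE 0.46, edgeR adjusted p = 0.953). The authors' deposited table gives MT2P1 a larger log2 fold change of 0.49, with an FDR of 0.158. How many of the MT2P1 reads came from MT2A cannot be told apart here. Of 21 metallothionein genes and pseudogenes in the table, 4 were tested, and 5 had 0 counts in all 12 libraries. Of the 4 tested, 0 passed with edgeR, DESeq2 or limma-voom, which called 2.84%, 4.85% and 2.8% of all tested genes. At an unadjusted edgeR p under 0.05, 0 passed, against 12% of all tested genes. With only 4 genes tested, 0 calls cannot be set apart from these shares.

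SLC30A1 (ENSG00000170385, chromosome 1, 211571568 to 211579161, minus strand), the zinc exporter of the plasma membrane and itself a target of MTF1, was the expressed exporter among the members. It had 66.9, 51.2, 65.9, 66.0, 63.2 and 73.7 CPM in DHT replicates 1 to 6. Vehicle replicates 1 to 6 had 61.9, 40.0, 55.3, 58.2, 47.5 and 59.2 CPM. Of the 6 DHT libraries 5 lay above all vehicle libraries, and DHT replicate 2 lay within the vehicle range. The means were 64.5 ± 7.38 CPM with DHT and 53.7 ± 8.30 CPM with vehicle (SD, n = 6 each; log2 fold change 0.26, SE 0.13, 95% interval -0.0044 to 0.53). Its p of 0.0534 gave an edgeR adjusted p of 0.431, and the difference did not pass without both replicate 2 libraries either (log2 fold change 0.25, SE 0.09, edgeR adjusted p = 0.150).

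SLC30A2 (ENSG00000158014, chromosome 1, 26037252 to 26046118, minus strand), which loads zinc into secretory vesicles and is known for secretion of zinc into milk, was not detectable at this depth. Its deposited counts summed to 0.75 over the 6 DHT libraries and to 0.5 over the 6 vehicle libraries, with no library above 0.5.

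SLC39A6 (LIV-1; ENSG00000141424, chromosome 18, 36108531 to 36129385, minus strand), an importer known as an estrogen-responsive gene of breast cancer, ran from 121.8 to 155.0 CPM in DHT libraries (median 149.6) and from 97.7 to 145.9 CPM in vehicle libraries (median 134.5). DHT replicates 1, 3, 5 and 6 lay above every vehicle library, and replicate 2 was the lowest of each group. The means were 143.7 ± 13.1 CPM with DHT and 129 ± 17.2 CPM with vehicle (SD, n = 6 each; log2 fold change 0.16, SE 0.11, 95% interval -0.09 to 0.40, edgeR adjusted p = 0.737).

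SLC39A7 (ENSG00000112473, chromosome 6, 33200445 to 33204439, plus strand), which releases zinc from the endoplasmic reticulum and Golgi into the cytosol, was the only tested transporter among the members with a lower mean under DHT. It ran from 199.96 to 253.6 CPM in DHT libraries (median 228) and from 225 to 311 CPM in vehicle libraries (median 249). DHT replicates 3, 4 and 6 lay below every vehicle library. The means were 227 ± 22.2 CPM with DHT and 261 ± 34.3 CPM with vehicle (SD, n = 6 each; log2 fold change -0.20, SE 0.12, 95% interval -0.45 to 0.04, edgeR adjusted p = 0.577).

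SLC39A14 (ENSG00000104635, chromosome 8, 22367249 to 22434129, plus strand), an importer of zinc, manganese and non-transferrin iron, showed the smallest p of the members. DHT replicates 1 to 6 had 26.8, 17.8, 26.02, 22.8, 20.4 and 25.2 CPM. Vehicle replicates 1 to 6 had 20.1, 20.3, 16.7, 15.5, 12.5 and 22.9 CPM. DHT replicates 1, 3 and 6 lay above every vehicle library and the other 3 lay within the vehicle range. The means were 23.2 ± 3.53 CPM with DHT and 17.99 ± 3.79 CPM with vehicle (SD, n = 6 each; log2 fold change 0.37, SE 0.16, 95% interval 0.03 to 0.71). Its p of 0.0348 gave an edgeR adjusted p of 0.351, and without both replicate 2 libraries the value was 0.48 (SE 0.15, adjusted p = 0.0958).

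**Figure D3:**
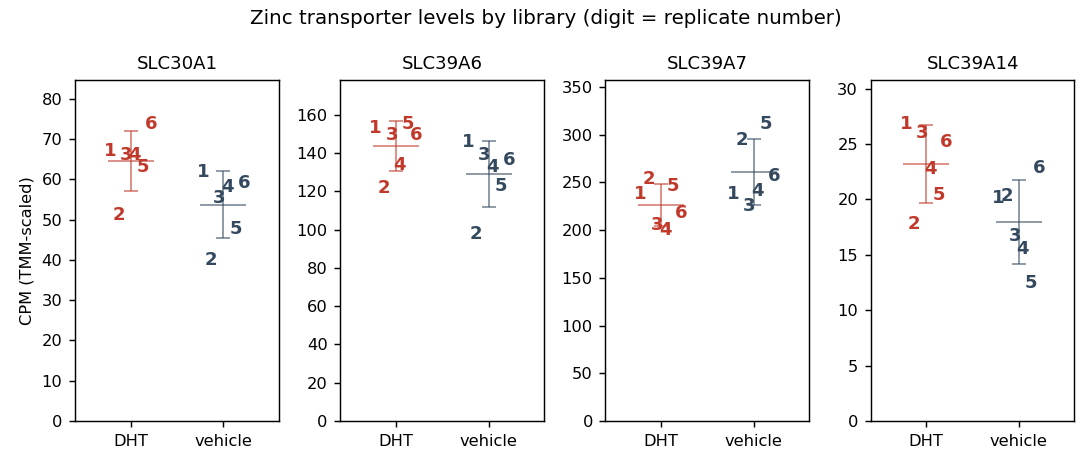
Level of the 4 expressed zinc transporter members in each library (CPM over TMM-scaled totals, linear axis from 0), DHT in red and vehicle in blue, with the replicate number as the marker and the mean ± SD as lines (n = 6 each). DHT libraries lie mostly higher for SLC30A1, SLC39A6 and SLC39A14 and mostly lower for SLC39A7, and the groups overlap in all 4 panels.

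Between genes, levels can be set side by side only per length of exon. On that scale MT2A had a median of 81.0 CPM per kb in DHT libraries and 74.7 in vehicle libraries, and SLC39A7 had 80.03 and 87.5 CPM per kb. These 2 genes overlapped and had no clear order. SLC39A6 followed with 40.6 CPM per kb (DHT) and 36.5 (vehicle), then SLC30A1 with 11.2 and 9.63, and SLC39A14 with 3.46 and 2.65. The length used was that of all annotated exon bases, 5893 for SLC30A1 and 6937 for SLC39A14. The authors' deposited table gives average transcript lengths of 5893 and 1516.8 bases for them. The order of SLC30A1 and SLC39A14 thus depends on the length chosen. MT1X (1.30 and 1.40 CPM per kb) and MT1F (1.12 and 1.41) overlapped each other, MT1G was at 0.456 and 0.523, and MT1E was at 0.205 and 0.211. SLC30A2 was lowest, at most 0.00860 CPM per kb in any library.

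The spread between libraries was wider for the 3 tested metallothioneins than for the 4 tested transporters among the members. The pooled within-group SD of log2 CPM was 0.78 for MT2A, at the 98.3 percentile of all tested genes, 0.49 for MT1X (82.8) and 0.52 for MT1F (85.3). Among transporters it was 0.21 for SLC30A1 (20.4 percentile), 0.18 for SLC39A6 (12.3), 0.16 for SLC39A7 (9.72) and 0.27 for SLC39A14 (38.3). MT1X and MT1F were counted far less deeply, at 13.08 to 118.07 and 13.33 to 103.57 deposited counts per library. SLC39A14, the lowest of these transporters, had 107 to 457 counts, and MT2A had 294 to 4977. How much of the spread of MT1X and MT1F comes from low counts was not tested. Outside the members, the importers SLC39A4 (0.69, 96.1 percentile) and SLC39A3 (0.50, 83.5) spread within the range of the metallothioneins. The other tested SLC30 and SLC39 genes lay below MT1X. Without both replicate 2 libraries MT2A was still at the 90.9 percentile, with an SD of 0.42. MT1X was then at 0.39 (87.8 percentile), MT1F at 0.295 (71.6) and SLC39A14, the widest of the 4 transporters, at 0.26 (61.4). The position of replicate 2 differed among the transporters. SLC30A1 in replicate 2 was 0.776 times the median of the other 5 DHT libraries and 0.688 times that of the other 5 vehicle libraries, and SLC39A6 was 0.814 and 0.718 times. SLC39A7 was 1.17 times the median in the DHT group and 1.22 times in the vehicle group. SLC39A14 was 0.706 times in the DHT group and 1.22 times in the vehicle group.

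**Figure D4:**
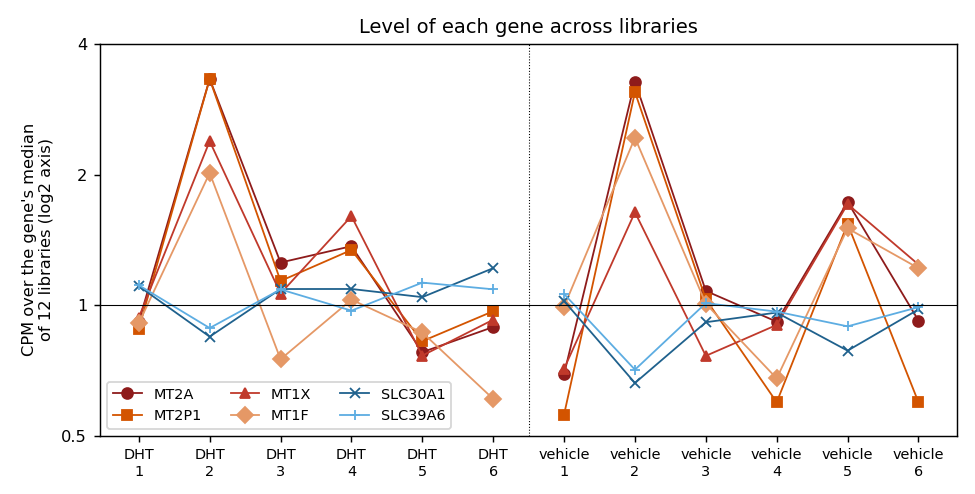
Level of 6 genes in each library relative to the gene's own median over 12 libraries (CPM ratio, log2 axis), DHT libraries left and vehicle libraries right; lines join the points of a gene only to guide the eye, since replicates have no order. MT2A and MT2P1 reach their highest values in both replicate 2 libraries, where SLC30A1 and SLC39A6 are at their lowest within each group.

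The protein-coding genes whose centred log2 CPM profiles were most like that of MT2A over the 12 libraries were TPI1 (a glycolytic enzyme; root mean square difference 0.136), PAFAH1B3 (0.139) and CAPG, an actin-capping protein (0.147). The median difference of the 11881 genes compared was 0.770. All 3 had their highest level of each group in replicate 2, with TPI1 at 936.8 CPM in DHT replicate 2 and 929 CPM in vehicle replicate 2, against at most 382 and 501 CPM in the other libraries of each group. For SLC39A14 the nearest were KLHL15 (0.133), HMGXB3 (0.151) and TRAF3, a signalling adaptor (0.161), with a median difference of 0.426. These likenesses describe 12 libraries that share the same sources of spread. TPI1, PAFAH1B3 and CAPG were picked for likeness to MT2A over these libraries, so their peak in replicate 2 largely follows from that choice.

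No other SLC30 or SLC39 gene passed by edgeR, where 2.84% of all tested genes did. Of 10 SLC30 exporters 6 were tested and 0 passed (median log2 fold change 0.12). At an unadjusted edgeR p under 0.05, 0 of the 6 passed, against 12% of all tested genes. DESeq2 and limma-voom also called 0 of the 6, where they called 4.85% and 2.8% of all tested genes. With 6 genes, 0 calls cannot be set apart from these shares. Of 14 SLC39 importers 11 were tested and 0 passed (median 0.10), with 3 higher at an unadjusted edgeR p under 0.05 (SLC39A10, SLC39A11 and SLC39A14), where 6.59% of all tested genes were higher at that p. SLC39A10, a plasma membrane importer named here after its values were seen, lay higher in every DHT library (30.8 to 42.1 CPM, median 34.4) than in any vehicle library (12.5 to 27.4 CPM, median 25.2). Its means were 35.7 ± 4.04 CPM with DHT and 23.4 ± 5.63 CPM with vehicle (SD, n = 6 each; log2 fold change 0.60, SE 0.17, edgeR adjusted p = 0.0851). It missed the threshold here and in 18 of 23 alternatives, and passed in 5. It passed, for one, with DESeq2 (adjusted p = 0.0218). It also passed without vehicle replicate 2 (log2 fold change 0.47, edgeR adjusted p = 0.0255) and without both replicate 2 libraries (0.51, edgeR adjusted p = 0.00619). It missed with limma-voom (adjusted p = 0.0855) and with RLE or upper-quartile scaling (edgeR adjusted p = 0.0828 and 0.137). With single libraries left out the edgeR adjusted p reached 0.185. The authors' deposited table lists it with a log2 fold change of 0.57 and an FDR of 0.0190. For the 7 tested members the authors' deposited table gives log2 fold changes from -0.22 (MT1F) to 0.36 (SLC39A14) and FDR values of 0.572 for SLC39A14 and 1 for the other 6.

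**Figure D5:**
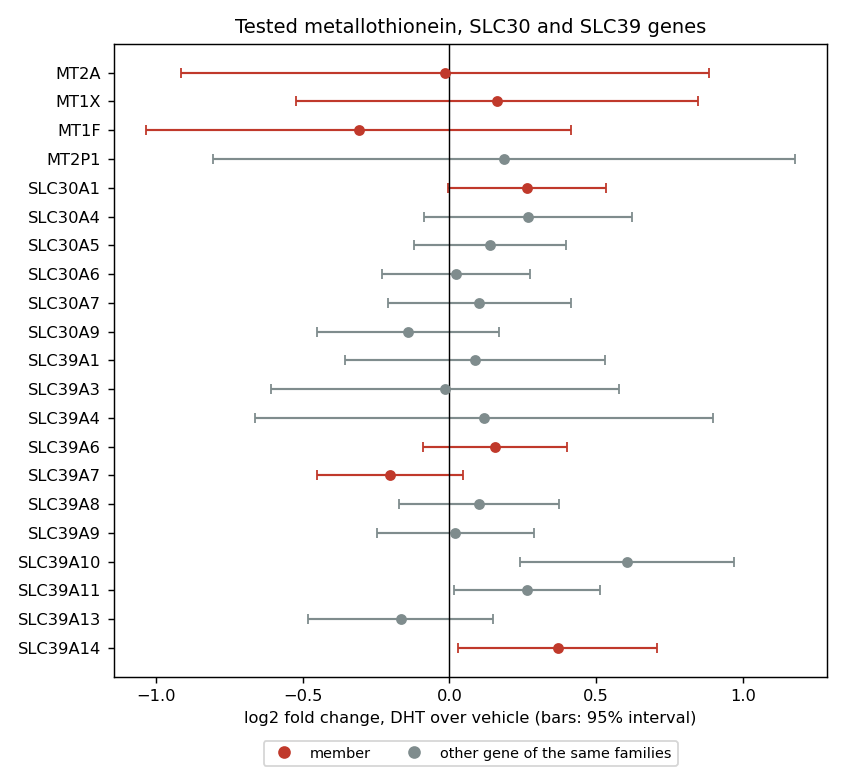
Log2 fold change (DHT over vehicle) with its 95% interval for each tested metallothionein, SLC30 and SLC39 gene, members in red and other genes of the same families in grey. Intervals of metallothioneins are wide and all include 0, while those of SLC39A10, SLC39A11 and SLC39A14 lie above 0 before adjustment.

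MTF1, the zinc sensor, had 48.2 ± 6.26 CPM with DHT and 46.3 ± 6.58 CPM with vehicle (SD, n = 6 each; log2 fold change 0.06, SE 0.12, edgeR adjusted p = 0.942). NR3C1, the glucocorticoid receptor, was present at 91.5 ± 12.004 CPM with DHT and 97.1 ± 15.7 CPM with vehicle, and did not pass (edgeR adjusted p = 0.912). Among 17 metal response and redox genes, 16 were tested and 1 passed, where 2.84% of all tested genes did. This was HIF1A, the oxygen-regulated transcription factor, which rose to 137 ± 10.1 CPM with DHT, against 89.4 ± 14.5 CPM with vehicle (log2 fold change 0.62, SE 0.12, edgeR adjusted p = 0.0116). Among 10 copper-handling genes 8 were tested and 0 passed (2.84% of all tested genes), with 1 at an unadjusted edgeR p under 0.05 (12% of all tested genes). DESeq2 and limma-voom also called 0 of the 8, where they called 4.85% and 2.8% of all tested genes. Of 6 iron and manganese genes, 5 were tested and 1 passed, against the same 2.84%. This was SLC40A1, ferroportin, the iron exporter of the plasma membrane, which ran from 287 to 338 CPM in DHT libraries and from 477 to 601 CPM in vehicle libraries. The groups did not overlap, and it fell to 305 ± 18.05 CPM with DHT, against 538 ± 52.1 CPM with vehicle (SD, n = 6 each; log2 fold change -0.82, SE 0.11, edgeR adjusted p = 6.04e-04). At an unadjusted edgeR p under 0.05, 1 of the 5 was higher (TFRC) and 2 were lower (SLC40A1 and SLC11A2), against 12% of all tested genes. TFRC (log2 fold change 0.31, edgeR adjusted p = 0.255) also had groups that did not overlap, as did 3.29% of all tested genes. SLC11A2 had a log2 fold change of -0.28 (edgeR adjusted p = 0.271).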

How the data were processed

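RNA-seq counts per gene of 6 DHT and 6 vehicle libraries were used as the authors deposited them. The submitters' processing notes name STAR, featureCounts and the build GRCh38; versions, options and strand setting were not stated there. Between 39.6% and 46.7% of a library's nonzero values were not whole (tolerance 0.005), so the deposited values were taken as estimated counts and rounded before testing; the test had been planned for counts. A record broken over 3 lines was left out. The authors' deposited table gives log2 fold changes, average log2 CPM, p-values and FDR for 14559 genes per the file headers. Its model was not stated. Its GC percent was not used, and its length column was used only to compare lengths of SLC30A1 and SLC39A14.

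In R 4.3.3, genes passing filterByExpr (16355) were TMM-scaled. The test was the quasi-likelihood F-test (edgeR 4.0.16), with treatment as sole term, Benjamini-Hochberg adjustment and a threshold of 0.05. The SE was obtained by dividing the log2 fold change by the root of F. CPM is the deposited count over the TMM-scaled total, and profiles were compared as log2(CPM + 0.5). The code was tested on simulated data. Alternatives were DESeq2 1.42.0, limma-voom (limma 3.58.1), other scalings and filters, unrounded values, the replicate number as a block, a threshold of 0.01 and libraries left out. Windows of 40 bases came from GENCODE v29, and promoters from RefSeq.

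All 10 members were named, with every gene of the zinc lists past the threshold, MTF1, other tested metallothioneins and up to 2 raised and 2 lowered genes per list. The genes most like MT2A (highest mean count among metallothioneins) and SLC39A14 (smallest p among transporters) were the 3 with the smallest root mean square difference. A marker of the line is not reported here. The members and lists were chosen with earlier results of these data known. The labels call replicates independent, from consecutive passages, so p-values measure the spread between passages of 1 line.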

Additional observations from a re-analysis of the deposited data

Results flagged for a closer look

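In 3 of the 20 groups of 6 libraries examined (10 genes in 2 treatments), 1 library lay far from the others by Dixon's test, where chance gives about 1 in 20. MT2A in DHT replicate 2 stood at 226.7 CPM with the next DHT library at 93.3 CPM, a gap of 0.769 of the group's range (critical value 0.625). MT1F in DHT replicate 2 stood at 4.72 CPM with the next at 2.41 CPM, a gap of 0.701 of the range. Vehicle replicate 2 was also highest for both genes, with gaps of 0.599 and 0.529 that did not reach the critical value. For SLC30A2, vehicle replicate 1 held 0.5 deposited counts and the other 5 vehicle libraries held 0, a gap of 1, the whole range. Any value above 0 beside zeros gives that gap, so this result is not to be read against the chance rate, and the other 2 come from the same library. The cause was not tested.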

How the results depend on the processing

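No member passed under any of the alternatives run, which were DESeq2, limma-voom, RLE and upper-quartile scaling, 2 other filters, unrounded values, the replicate block, a threshold of 0.01 and libraries left out. All genes passing numbered 793 with DESeq2, 195 at 0.01, 920 without both replicate 2 libraries and 278 to 619 with each library left out, with the main count of 464 divided by over 1.5 without DHT replicate 1 (278), 3 (282), 4 (301) or 6 (280) or vehicle replicate 3 (306). Of 50 tested genes of the zinc lists, 2 passed in the analysis reported (SLC40A1 and HIF1A), where 2.84% of all tested genes did. With DESeq2 4 of 50 passed (TFRC and SLC39A10 besides these), where 4.85% of all tested genes did. At 0.01, 1 of 50 passed (SLC40A1), beside 195 of 16355 genes. With each library left out, 2 to 3 of 49 to 51 list genes passed, beside 278 to 619 of all genes. An alternative chosen after seeing the data left out vehicle replicate 5 and both replicate 2 libraries. In it 1769 of 16630 genes passed, and 6 of 49 list genes (TFRC, SLC11A2, FTL and SLC39A10 besides SLC40A1 and HIF1A). Counts of list genes are to be read only beside those of all genes. MT2A changed sign without a filter (0.021), in that added alternative (0.21) and with libraries left out (-0.47 to 0.41; positive without DHT replicate 1, 3, 5 or 6 or vehicle replicate 2 or 5). MT1X ranged from -0.13 (without DHT replicate 2) to 0.32. The summed metallothionein difference (DHT minus vehicle, -1.35 CPM) ran from -28.4 to 24.6 CPM. The other 5 tested members kept their sign throughout. The cause was not tested. Genes named after their values were seen are SLC39A3, SLC39A4, SLC39A10, SLC39A11, TFRC, SLC11A2, FTL and TXNRD1.

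Same-numbered libraries correlated at 0.543, 0.886, 0.469, 0.270, -0.262 and 0.517 (replicates 1 to 6) in their deviations from the group means. The median correlation of differently numbered libraries was 0.068. Because replicate 5 was negative, the numbers were not taken to pair the libraries in the main test. In all, 3 of 6 DHT and 3 of 6 vehicle libraries were closest to their own number. Whether same-numbered libraries shared a passage was not tested. With the replicate block 1286 of 16355 tested genes passed. Of 50 tested genes of the zinc lists 4 passed (TXNRD1, and SLC39A10 at an edgeR adjusted p of 0.0124, besides SLC40A1 and HIF1A). Of the 7 tested members 0 passed. Nearest among them were SLC30A1 (log2 fold change 0.27, edgeR adjusted p = 0.0594), SLC39A14 (0.38, edgeR adjusted p = 0.106) and SLC39A7 (-0.20, edgeR adjusted p = 0.17). MT2A was at 0.011 (SE 0.19, against 0.42 in the main test). Between same-numbered libraries, DHT was higher in 6 of 6 for SLC30A1 and SLC39A6 and in 5 for SLC39A14. It was higher in 0 of 6 for SLC39A7, 4 for MT2A and MT1X, and 1 for MT1F.

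Depth limits MT1E, MT1G and SLC30A2, which were too low to test. Division of reads among metallothionein copies limits each of those genes singly.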
